A study of Felis catus with 25 samples.

Results

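Cat corneal fibroblasts treated with troglitazone (5 libraries) were set against the same cells under transforming growth factor beta 1 (TGFb1, 5 libraries), which makes 10 of the 25 libraries of the series, chosen by their sample titles. In the Trog group, cells of the domestic cat (Felis catus) had received TGFb1 at 1 ng/ml for 2 days, TGFb1 was then taken away, and 7.5 uM troglitazone was given until day 5. In the TGFb group, cells were harvested at the end of the 2 days with TGFb1. The Trog cells thus differed from the TGFb cells by the drug, by 3 days without TGFb1 and by 3 more days in the dish, and these cannot be told apart, since no day 5 library without a drug was analysed here. The other groups, also of 5 libraries each, serve at the end as points of reference. TrogGW had the same course as Trog, with 10 uM GW9662 beside the troglitazone. UK had 30 uM UK-5099 in place of troglitazone. FB cells, called quiescent, were those of day 0, without TGFb1 or drug. All groups were grown in collagen-coated dishes, and the labels name no genetic change. The replicates are called biological and independent, without a statement on whether they came from separate animals, and p-values here reflect no more than the spread among the libraries sequenced.

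Corneal fibroblasts descend from keratocytes, the quiet cells that keep the stroma clear. TGFb1, acting through its serine kinase receptors and the SMAD transcription factors, turns them into myofibroblasts, which build smooth muscle actin fibres and lay down the collagen and fibronectin of corneal scars. Troglitazone is a thiazolidinedione, a ligand of PPAR-gamma, a nuclear receptor that pairs with RXR and turns on genes of fatty acid uptake and storage. Thiazolidinediones are also known to bind the mitochondrial pyruvate carrier. GW9662 blocks PPAR-gamma covalently, and UK-5099 inhibits the pyruvate carrier.

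Polyadenylated RNA was sequenced and read counts per gene symbol were deposited. Totals were 18226937 to 22561314 counts per library in Trog and 17578331 to 24007762 in TGFb. The 10 most abundant genes of a library took 10.6% to 11.5% of its counts in Trog and 20.7% to 23.7% in TGFb. Levels below are counts per 1000000 (CPM) of a library total scaled by edgeR's TMM factor, which was 1.19 to 1.21 in Trog and 0.713 to 0.768 in TGFb libraries. Within each of these groups, log2 CPM of any pair of libraries correlated across genes at 0.996 or more.

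Fibroblast markers had counts in both groups, but not all at like levels. Decorin (DCN), a small proteoglycan of the stroma, averaged 579 ± 53.1 CPM in Trog and 583 ± 34.4 in TGFb (SD, n = 5), and FAP, a membrane protease of activated fibroblasts, averaged 353 ± 25.7 CPM in Trog and 419 ± 30.9 in TGFb. Of the 9 fibroblast markers in the files, 8 were tested, 1 was at least 2-fold higher in Trog and 4 were at least 2-fold lower, the collagens COL1A1 and COL1A2 among these. The summed level of the 9 was 3379 to 5154 CPM in Trog and 92470 to 111200 in TGFb. COL1A1 held most of that sum in TGFb, so the sum mainly follows collagen and does not measure the markers as a set. Some marker lists of other cells were low and others were not. Leukocyte PTPRC, CD163 and AIF1, epithelial KRT3 and KRT12, melanocytic TYR and DCT and the adipocyte hormone ADIPOQ had 0 counts in all 10 libraries. Other members of these lists had counts. Of 8 melanocyte and Schwann cell markers in the files, 4 were at 0 in each group, and the 1 tested was at least 2-fold higher in Trog. Their sum was 14.5 to 19.2 CPM in Trog and 5.17 to 6.42 in TGFb. Corneal epithelium markers summed to 4.38 to 6.05 CPM in Trog and 5.30 to 7.76 in TGFb. Of the 10 corneal endothelium markers, 9 were tested, 3 were at least 2-fold higher in Trog and 6 lower, and their summed level was 951 to 1026 CPM in Trog and 4237 to 4545 in TGFb. SLC4A11, a transporter of that endothelium, was higher in Trog, unlike that sum, at 7.58 ± 0.81 CPM against 1.86 ± 0.545 in TGFb. Vascular endothelium markers summed to 75.4 to 91.3 CPM in Trog and 91.5 to 95.2 in TGFb, and immune markers to 38.2 to 47.0 CPM in Trog and 21.6 to 30.3 in TGFb. The part of such cells in the results was not tested. Bulk RNA cannot tell fewer cells of a type from less RNA per cell.

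Replacing TGFb1 with troglitazone for 3 days went with a change of most genes. Of 10131 genes tested with edgeR's quasi-likelihood test, 8461 (83.5%) changed at a Benjamini-Hochberg adjusted p under 0.05, 4361 of them upwards in Trog and 4100 downwards. At least 2-fold higher in Trog were 1497 genes (14.8% of those tested) and at least 2-fold lower were 1416 (14.0%), and for 7399 (73.0%) the libraries of the groups did not overlap. These shares are the background against which each gene group below is read. The median log2 fold change over all genes was 0.03. With library totals alone as the scale, this median moved to 0.72, a shift of 0.69, and 3746 genes were at least 2-fold higher against 683 lower. A fold change below is therefore relative to the bulk of genes, and changes smaller than that shift depend on the scale. Of 32 gene lists read below, 8 had a median that changed sign on that scale, and each is given with both values. Values in parentheses after a gene are its log2 fold changes of Trog over TGFb ± SE, and each gene said to rise or fall had an adjusted p of at most 0.0281 in edgeR's test.

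Most of the contractile genes of the myofibroblast fell. Of 15 smooth muscle contractile genes tested, 12 were at least 2-fold lower in Trog and 0 higher, with a median log2 fold change of -3.60. ACTA2, the alpha smooth muscle actin that defines myofibroblasts, had 212, 315, 374, 249.7 and 198 CPM in the 5 Trog libraries, against 9412, 9111, 8611, 9378 and 8498 CPM in TGFb (-5.06 ± 0.147, adjusted p = 3.57e-18). The groups lay far apart, and Trog replicate 3 was the highest Trog library. ACTC1, the cardiac alpha actin, had 33.9, 55.3, 77.1, 41.2 and 29.0 CPM in Trog and 8812, 8528, 8105, 8478 and 7677 in TGFb (-7.46 ± 0.215), and ACTG2, the enteric gamma actin, fell by a similar order (-5.37 ± 0.153). These actins are near-identical in sequence, and how reads shared among them were counted is not given in the sources used here, so their single values are uncertain. Calponin (CNN1), which binds actin and has no such close copy in this list, had 10.4, 15.2, 13.7, 12.5 and 11.4 CPM in Trog, against 443, 472, 463, 456 and 427 in TGFb (-5.16 ± 0.0792, adjusted p = 5.23e-22). The regulatory light chain MYL9 fell to 167 ± 23.2 CPM in Trog, against 2029 ± 161 in TGFb (-3.60 ± 0.0890). Every Trog library was below every TGFb library for these 5 genes. As a share of all counts, the 16 contractile genes in the files held 0.442% ± 0.049 in Trog and 3.23% ± 0.106 in TGFb.

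Most genes of focal adhesions and stress fibres fell too. Of 23 genes of the actin cytoskeleton and of the targets of SRF and YAP, the factors that read actin tension, 17 were at least 2-fold lower in Trog and 0 higher (median -1.78), and with library totals alone 13 were lower and 2 higher. ANKRD1, a textbook YAP target, had 0.773, 0.808, 3.94, 1.94 and 0.368 CPM in Trog and 1974, 2031, 1931, 1569 and 1847 in TGFb (-10.19 ± 0.250). EDN1, the precursor of endothelin 1, had 5 counts in all 5 Trog libraries together and 12.8 ± 3.20 CPM in TGFb (-8.09 ± 0.311). Connective tissue growth factor CCN2 fell less, to 1688 ± 223 CPM in Trog, against 8543 ± 731 in TGFb (-2.34 ± 0.0906), and so did its relative CCN1 (-2.15 ± 0.108). Among adhesion proteins, the filamin FLNA (-2.94 ± 0.0866), the LIM protein FHL1 (-3.33 ± 0.0827) and vinculin VCL (-2.08 ± 0.0637) fell. For all 23 genes the libraries of the groups did not overlap, and ANKRD1 again was highest in Trog replicate 3 among the Trog libraries.

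**Figure D1:**
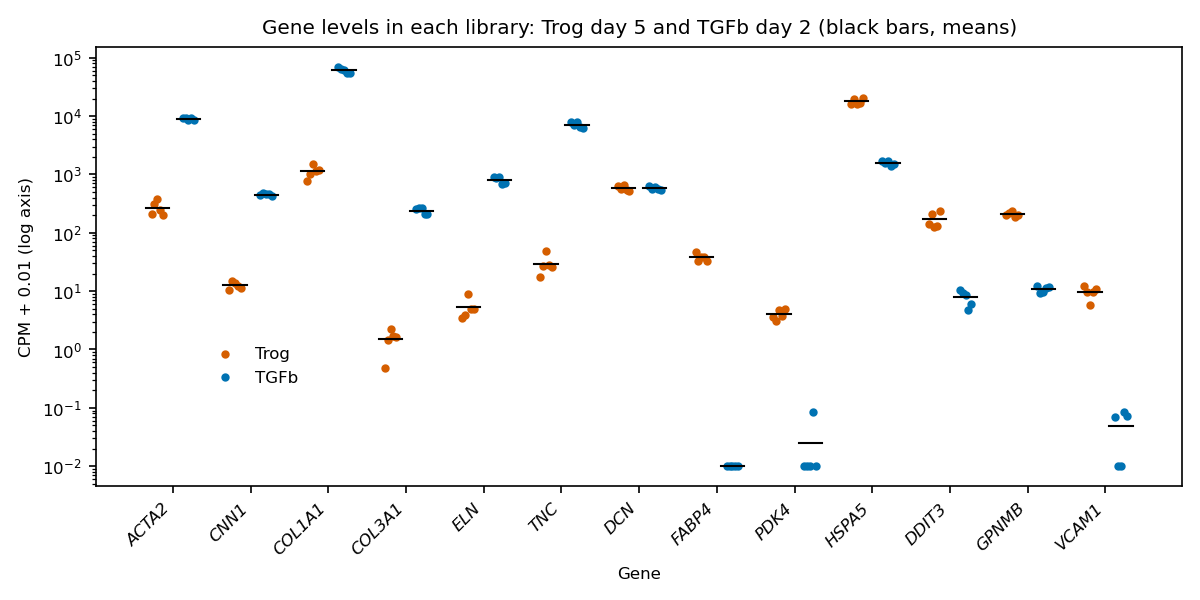
Levels of 13 genes in each library, in CPM plus 0.01 on a log axis, with the 5 Trog libraries (left, orange) and the 5 TGFb libraries (right, blue) of each gene as points and the group means as bars. ACTA2, CNN1, COL1A1, COL3A1, ELN and TNC sit lower in all Trog libraries, while FABP4, PDK4, HSPA5, DDIT3, GPNMB and VCAM1 sit higher and the points of DCN overlap.

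Every collagen chain tested fell. Of 19 chains, 17 were at least 2-fold lower in Trog and 0 higher, with a median of -2.53. The fibrillar chains, which form the stromal fibrils, moved most: all 7 tested were at least 2-fold lower, with a median of -4.75, against -1.95 for the 12 network, beaded and fibril-associated chains. COL1A1, which encodes most of the type I fibril, had 776, 1008, 1514, 1159.7 and 1190.2 CPM in Trog, against 69431, 64277, 62649, 55337 and 55178 in TGFb (-5.76 ± 0.163). COL3A1, the type III chain of early scars, had 0.472, 1.46, 2.27, 1.68 and 1.66 CPM in Trog and 251, 264, 267, 208 and 211 in TGFb (-7.30 ± 0.147). No Trog library reached the lowest TGFb library for either. The basement membrane chain COL4A1 (-1.76 ± 0.0691), the short chain COL8A1 (-2.53 ± 0.192) and the fibril-associated COL12A1 (-2.94 ± 0.106) fell less than the fibrillar chains COL1A2 (-4.82 ± 0.152) and COL5A1 (-4.75 ± 0.105). The 21 chains in the files held 1.61% ± 0.129 of all counts in Trog and 11.4% ± 0.613 in TGFb.

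The enzymes that fold and crosslink collagen fell in the same libraries. Of 26 tested, 21 were at least 2-fold lower and 0 higher (median -1.86). Prolyl hydroxylase P4HA1, which stabilises the triple helix, fell to 236 ± 14.6 CPM in Trog, against 1235 ± 67.2 in TGFb (-2.39 ± 0.0598). SERPINH1 (HSP47), the chaperone specific to collagen, fell (-2.16 ± 0.0667). The lysyl hydroxylase PLOD2 (-3.01 ± 0.0757) and the lysyl oxidases LOX (-3.15 ± 0.0903), LOXL1 (-3.61 ± 0.0671) and LOXL2 (-3.76 ± 0.0683), which make the crosslinks, fell too. The median over the hydroxylases was -1.86 over 10 genes, and over the processing and crosslinking enzymes -2.42 over 11.

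Most matrix glycoprotein and elastic fibre genes fell. Of 26 tested, 20 were at least 2-fold lower in Trog and 1 higher, with a median of -2.32, and with library totals alone 15 were lower and 2 higher. Tenascin C (TNC), an adhesion-modulating glycoprotein of healing wounds, had 17.7, 26.5, 49.0, 28.2 and 26.1 CPM in Trog and 7829, 7009, 7766, 6412 and 6179 in TGFb (-7.90 ± 0.208). Elastin (ELN) had 3.48, 3.92, 8.81, 4.96 and 5.02 CPM in Trog and 898, 866, 889, 682 and 726 in TGFb (-7.27 ± 0.161). Neither gene had a Trog library near the TGFb range, and Trog replicate 3 was again the highest of the 5. The matricellular genes TGFBI (-5.80 ± 0.134), POSTN (-4.58 ± 0.0988) and THBS1 (-3.54 ± 0.126) fell by less. Fibronectin (FN1), the abundant scaffold of provisional matrix, fell least among those named, to 24467 ± 2149.6 CPM in Trog, against 73779 ± 7297 in TGFb (-1.59 ± 0.105). The calcium-binding SMOC1 rose to 53.3 ± 7.80 CPM in Trog, against 4.91 ± 0.628 in TGFb (3.44 ± 0.110).

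The remaining matrix expression was not equal among Trog libraries. Over the 60 tested contractile, collagen and glycoprotein genes, Trog replicate 3 held the highest Trog level of 31 and Trog replicate 4 of 19, while Trog replicate 5 held the lowest of 26. Among TGFb libraries, replicate 1 held the highest level of 43 of these genes and replicate 4 the lowest of 34. These differences within a group were small beside those between the groups: for COL1A1 the highest Trog library had 1514 CPM and the lowest TGFb library 55178.

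Genes of the resting keratocyte and stromal proteoglycans fell more often than they rose. Of 15 keratocyte and stromal proteoglycan genes tested, 11 fell, 9 of them at least 2-fold, and 2 rose, 0 of them 2-fold (median -1.39). Lumican (LUM), which spaces the collagen fibrils of the clear cornea, fell to 243 ± 54.1 CPM in Trog, against 859 ± 69.3 in TGFb (-1.82 ± 0.103). The proteoglycans ASPN (-5.13 ± 0.205), OGN (-4.19 ± 0.431) and PRELP (-2.29 ± 0.0996) fell, as did ANGPTL7 (-2.58 ± 0.183), a secreted factor of the stroma. DCN gave -0.01 ± 0.0628 (adjusted p = 0.884), with overlapping groups, and 0.68 with library totals alone as the scale. The crystallin-like enzyme ALDH1A1, abundant in keratocytes of several mammals, averaged 2.05 ± 0.41 CPM in Trog and 2.24 ± 0.211 in TGFb (-0.12 ± 0.166, adjusted p = 0.504), and 0.56 with library totals alone.

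Matrix proteases split in direction. Of 29 proteases and inhibitors tested, 8 were at least 2-fold higher in Trog and 12 lower, with a median of -0.33, which was 0.36 with library totals alone. Cathepsin K (CTSK), a collagen-cleaving protease, had 1207, 1138, 1377, 1069.7 and 1156 CPM in Trog and 172, 150.3, 156, 158 and 149 in TGFb (2.92 ± 0.0692), so the lowest Trog library was above the highest TGFb library. The aggrecanase ADAMTS5 (3.40 ± 0.110), the membrane collagenase MMP14 (1.60 ± 0.0609), MMP11 (2.33 ± 0.0936) and MMP17 (2.54 ± 0.291) rose, and the gelatinase MMP2 rose by less (0.47 ± 0.0665). TIMP1, an inhibitor of metalloproteases, rose as well, to 1494 ± 219 CPM in Trog, against 591 ± 51.3 in TGFb (1.34 ± 0.0846). MMP16 (-4.71 ± 0.248), ADAMTS12 (-3.22 ± 0.0797) and ADAMTS9 (-2.62 ± 0.347) fell.

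The receptors by which cells hold the matrix moved in both directions. Of 22 integrin and laminin genes tested, 10 were at least 2-fold lower in Trog and 5 higher (median -0.83), and with library totals alone 4 were lower and 7 higher. ITGB1, the beta chain of most collagen and fibronectin receptors, fell (-1.92 ± 0.0648), as did the alpha chains ITGA6 (-4.02 ± 0.0943), which binds laminin, and ITGA1 (-1.79 ± 0.0590), which binds collagen. Other collagen-binding alpha chains went the other way: ITGA10 had 29.1, 25.5, 25.4, 24.6 and 24.3 CPM in Trog and 0.97, 1.40, 1.75, 0.896 and 1.68 in TGFb with no overlap (4.24 ± 0.124), and ITGA2 rose (2.23 ± 0.120). The fibronectin receptor chain ITGA5 changed by -0.97 ± 0.0576.

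The TGFb pathway itself did not move as a block. Of 42 genes of the superfamily tested, 8 were at least 2-fold higher in Trog and 10 lower, with a median of -0.15 that was 0.53 with library totals alone. Among ligands, TGFB1 rose to 71.9 ± 5.74 CPM in Trog, against 32.3 ± 2.32 in TGFb (1.15 ± 0.0635), BMP2 rose (2.11 ± 0.190) and INHBA, the activin A chain, fell (-2.51 ± 0.0597). Among 11 receptors tested, 3 were at least 2-fold higher and 0 lower. The type I receptor TGFBR1 gave 0.11 ± 0.0675 (adjusted p = 0.127, 0.0431 without Trog replicate 2 and 0.03 with upper-quartile scaling), and 0.80 with library totals alone, while BMPR1B (2.63 ± 0.114) and ACVRL1 (2.03 ± 0.0943), which lead to the BMP-type SMADs, rose. SMAD3, the signal carrier of TGFb1, rose (1.0 ± 0.0545) and SMAD7, the inhibitor that TGFb1 induces, fell (-0.76 ± 0.0793), though its call ended with library totals alone (-0.079). Secreted BMP and activin antagonists fell: noggin (NOG) had 0.129, 0.115, 0.122, 0.186 and 0.0921 CPM in Trog and 3.03, 1.52, 1.64, 1.79 and 2.74 in TGFb, with every Trog library lower (-3.98 ± 0.315), and follistatin FST (-3.63 ± 0.113) and FSTL1 (-3.56 ± 0.0729) fell. ID2, a BMP target, rose (1.30 ± 0.190).

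Wnt genes, whose secreted ligands steer growth and cell fate through frizzled receptors, moved in both directions. Of 27 tested, 10 were at least 2-fold lower in Trog and 3 higher (median -0.59, and 0.10 with library totals alone). Of secreted inhibitors, FRZB (-6.52 ± 0.321), which binds Wnt ligands, and DKK2 (-4.37 ± 0.0783), which binds the coreceptor, fell. The ligand WNT10B (-3.93 ± 0.195) and the receptor FZD2 (-3.48 ± 0.146) fell, and the nuclear factor TCF7 rose (3.34 ± 0.143). AXIN2, a feedback target of the pathway, gave -0.67 ± 0.274 (adjusted p = 0.0281), a call that was lost without TGFb replicate 1 (adjusted p = 0.139), TGFb replicate 5 (0.0599) or Trog replicate 2 (0.0721). WNT5A, a ligand of the noncanonical branch, gave -0.68 ± 0.0807 (adjusted p = 9.64e-08), and 0.008 with library totals alone.

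Among growth factors and their receptors, 14 of 36 tested were at least 2-fold higher in Trog and 7 lower (median 0.34). IGF1, insulin-like growth factor 1, had 5 counts in all Trog libraries together and 15.3, 16.3, 14.3, 18.4 and 17.4 CPM in TGFb (-8.44 ± 0.233). Hepatocyte growth factor (HGF), which acts on the corneal epithelium, had 28.9, 19.0, 26.2, 25.8 and 23.3 CPM in Trog and 3.46, 3.04, 3.78, 3.51 and 2.67 in TGFb, with no overlap (2.90 ± 0.122), while its receptor MET fell (-1.89 ± 0.0618). Amphiregulin AREG (4.64 ± 0.408), FGF1 (2.43 ± 0.125) and the receptor FGFR2 (2.92 ± 0.0779) rose. Of 5 IGF binding proteins tested, 4 were at least 2-fold lower, IGFBP2 (-2.40 ± 0.0936) and IGFBP6 (-2.19 ± 0.0969) most. VEGFA, the vascular growth factor, rose (0.72 ± 0.0619) and the platelet-derived growth factor receptor PDGFRA fell (-0.72 ± 0.0631), both by less than 2-fold, and PDGFRA by -0.036 with library totals alone.

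**Figure D2:**
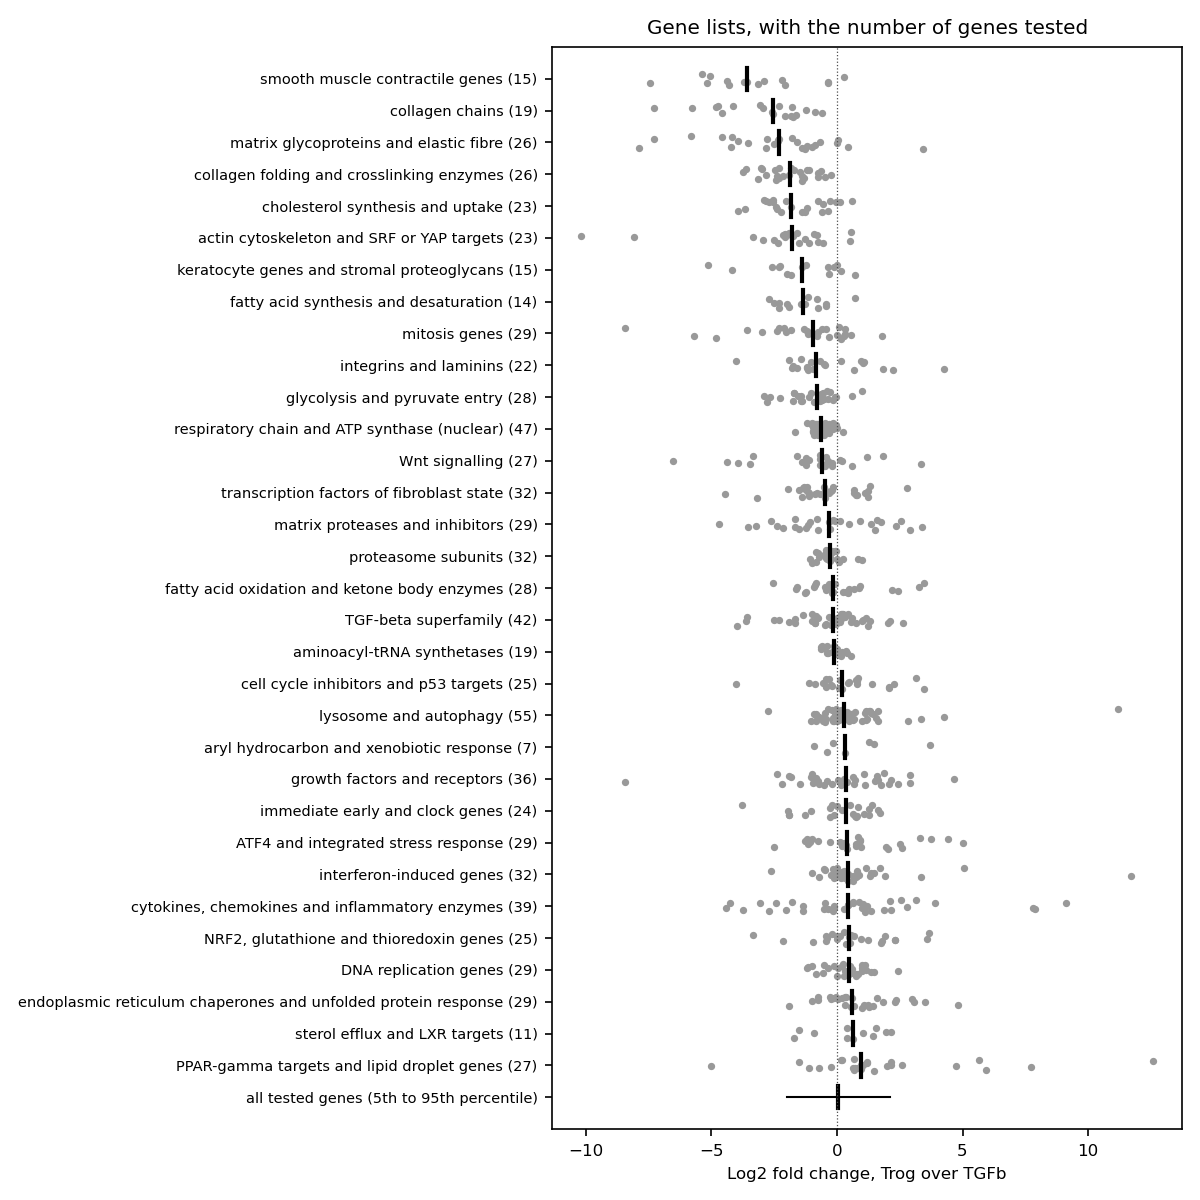
Log2 fold changes of Trog over TGFb for the tested members of 32 gene lists (grey points, 1 per gene; black bar, the median of the list), with all 10131 tested genes in the bottom line as the median and the range from the 5th to the 95th percentile. Lists run from the lowest to the highest median. Contractile and collagen genes lie at the low end, at medians of -3.60 and -2.53, and PPAR-gamma targets at the high end, at 0.97.

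Textbook targets of PPAR-gamma rose in part. Of 27 genes of the PPAR-gamma and lipid droplet list tested, 13 were at least 2-fold higher in Trog and 3 lower, and the median was 0.97. FABP4, the fatty acid carrier of adipocytes and macrophages, had 46.7, 33.1, 38.9, 39.1 and 33.2 CPM in Trog and 0 counts in all TGFb libraries, at least 1020-fold higher with 3 counts over the group as the floor. Its relative FABP5 had 175, 147, 151, 151 and 151 CPM in Trog and 2.18, 3.04, 2.14, 2.84 and 2.61 in TGFb (5.93 ± 0.0859). FABP3, the heart form, went the other way, with 24.3, 41.0, 32.5, 29.1 and 31.2 CPM in Trog and 943, 1044, 969, 1119 and 999.7 in TGFb (-5.0 ± 0.104). All Trog libraries were thus above the TGFb libraries for FABP4 and FABP5 and below them for FABP3. PDK4, the kinase that holds pyruvate dehydrogenase off, had 3.61, 3.04, 4.75, 3.73 and 4.93 CPM in Trog and 1 count in TGFb, 319-fold (95% counting interval 56.9 to 12600) higher. No TGFb library came near the lowest Trog library. KLF15 (5.66 ± 0.279), a regulator of fuel genes, the secreted lipase inhibitor ANGPTL4 (2.59 ± 0.113) and the lipid droplet coat PLIN2 (0.96 ± 0.0511) rose. Lipoprotein lipase LPL (-1.51 ± 0.0633) and ACADM (-1.12 ± 0.0533), an enzyme of fatty acid oxidation, fell. PPARG had 0 counts in Trog and 0 in TGFb, and the fatty acid transporter CD36 had 1 count in Trog and 0 in TGFb. Whether the symbol's counts hold all reads of PPARG was not tested.

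Counts of changed enzymes of fatty acid oxidation were near the shares over all genes, 14.8% and 14.0%. Of 28 tested, 4 were at least 2-fold higher in Trog and 5 lower (median -0.17, and 0.51 with library totals alone). The genes that rose most were ACSL6 (3.48 ± 0.484) and ACSL5 (3.25 ± 0.138), which couple fatty acids to coenzyme A, and CPT1C (2.43 ± 0.111). ACSL6 was at low levels, with 0.461 to 0.730 CPM in Trog and 0 to 0.121 in TGFb. Inside the mitochondrion CPT2 (-1.62 ± 0.0605), HADH (-1.27 ± 0.0586) and HADHA (-0.91 ± 0.0498) fell, and ACADVL, the first enzyme for long chains, rose slightly (0.26 ± 0.0475). EHHADH, the peroxisomal bifunctional enzyme, fell (-2.56 ± 0.0686).

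Genes of glycolysis and of the entry of pyruvate into mitochondria fell more often than they rose. Of 28 tested, 13 were at least 2-fold lower in Trog and 1 was higher (median -0.78, and -0.10 with library totals alone). Lactate dehydrogenase LDHA fell to 1002 ± 37.8 CPM in Trog, against 6867 ± 269 in TGFb (-2.78 ± 0.0665), with the lactate exporter SLC16A3 (-2.65 ± 0.0749), TPI1 (-2.91 ± 0.0676), ALDOC (-2.27 ± 0.0647) and the hexokinase HK2 (-1.38 ± 0.0735). The glucose transporter SLC2A1 changed by -0.62 ± 0.060, and by 0.064 with library totals alone. The genes of the pyruvate carrier changed by less than 2-fold: MPC1 had 20.2, 19.0, 23.0, 19.2 and 22.7 CPM in Trog and 31.9, 28.8, 31.6, 30.7 and 28.9 in TGFb (-0.55 ± 0.0682, adjusted p = 1.98e-07), and MPC2 had 35.3, 40.5, 42.9, 36.3 and 43.3 CPM in Trog and 48.2, 54.9, 52.1, 51.9 and 51.1 in TGFb (-0.38 ± 0.0629, adjusted p = 9.96e-06). All Trog libraries were below the TGFb libraries for both, but with library totals alone the changes were 0.14 for MPC1 and 0.30 for MPC2. Pyruvate carboxylase PC, which feeds the citrate cycle from pyruvate, rose (1.02 ± 0.0625). Nuclear genes of the respiratory chain fell by small amounts: 44 of 47 were lower, 4 of them at least 2-fold, and the median was -0.63. With library totals alone that median was 0.06, so the direction of this group depends on the scale.

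Most tested genes of sterol synthesis and uptake fell, and genes of sterol export moved in both directions. Of 23 genes of cholesterol synthesis and uptake tested, 15 were at least 2-fold lower in Trog and 0 higher (median -1.85), against 12 lower and 1 higher with library totals alone. HMGCS1, an early enzyme of the pathway, had 88.9, 91.8, 92.5, 95.4 and 86.7 CPM in Trog and 507, 559, 603, 617 and 655 in TGFb (-2.69 ± 0.0643), with no overlap. ACAT2 (-3.68 ± 0.0579) and LSS (-2.81 ± 0.0573), which closes the sterol rings, fell with it. Of 11 sterol efflux genes tested, 5 were at least 2-fold higher in Trog and 2 lower (median 0.63), against 8 higher and 1 lower with library totals alone. The cholesterol exporter ABCA1 rose to 187 ± 36.2 CPM in Trog, against 69.2 ± 6.44 in TGFb (1.43 ± 0.0982), and so did NPC1 (1.57 ± 0.0627), which moves cholesterol out of lysosomes, and the lipid transfer protein PLTP (2.17 ± 0.302). The phospholipid enzyme LPCAT3 (-1.69 ± 0.0562) and the lipoprotein receptor SCARB1 (-1.52 ± 0.0494) were the members that fell at least 2-fold. Of the 14 fatty acid synthesis and desaturation genes tested, 9 were at least 2-fold lower and 0 higher (median -1.35, and 1 higher with library totals alone), with FASN (-1.89 ± 0.0805), the desaturase SCD (-2.29 ± 0.0626) and their regulator SREBF1 (-0.80 ± 0.0592) lower. With library totals alone the call of SREBF1 ended (-0.11).

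Chaperones of the endoplasmic reticulum, where secreted proteins are folded, rose more often than they fell. Of 29 chaperone and unfolded protein response genes tested, 13 were at least 2-fold higher in Trog and 2 lower (median 0.62). HSPA5 (BiP), the main chaperone of the compartment, had 16372, 19691, 16176, 16729 and 20781 CPM in Trog and 1706, 1552, 1694, 1414 and 1491 in TGFb (3.51 ± 0.0972, adjusted p = 1.66e-18). The groups did not overlap, and Trog replicates 2 and 5 were the highest. HERPUD1 (3.08 ± 0.0890) and DERL3 (4.81 ± 0.197), which act in the removal of misfolded proteins, and CRELD2 (2.99 ± 0.102) rose. XBP1, the factor spliced by the sensor IRE1, gave -0.26 ± 0.0632 (adjusted p = 0.000737) with overlapping groups and 0.42 with library totals alone, and the counts do not show its splicing. PDIA3 (-1.0 ± 0.0637), a disulfide isomerase, and CREB3L1 (-1.89 ± 0.0530), a membrane-bound factor that acts on collagen genes, fell. Over the list, Trog replicate 5 held the highest Trog level of 14 genes and Trog replicate 2 of 10. The 29 genes held 4.77% ± 0.509 of all counts in Trog and 1.24% ± 0.0396 in TGFb.

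The factors of the integrated stress response rose, and its amino acid genes moved in both directions. Of 29 genes of the list tested, 8 were at least 2-fold higher in Trog and 7 lower (median 0.42), against 16 higher and 1 lower with library totals alone (median 1.10), so the count of lower genes depends on the scale. All 8 tested factors rose, 5 of them at least 2-fold. DDIT3 (CHOP), the factor tied to prolonged stress, had 139.7, 214, 127, 129 and 238 CPM in Trog and 10.6, 9.43, 8.69, 4.78 and 6.10 in TGFb (4.40 ± 0.195). TRIB3, its target, had 268, 434, 299, 277 and 313 CPM in Trog and 12.6, 11.0, 11.3, 7.69 and 6.72 in TGFb (5.0 ± 0.146), while ATF4 itself, with no overlap in any of the 3, rose by less (0.75 ± 0.0626). Of 21 amino acid and folate genes, 3 were at least 2-fold higher and 7 lower. The transporter chain SLC3A2 (3.75 ± 0.0702) and SHMT1 (3.30 ± 0.158) rose, and asparagine synthetase ASNS (-1.17 ± 0.0506) and the serine enzyme PSPH (-1.27 ± 0.0561) fell. None of 19 tested aminoacyl-tRNA synthetases changed 2-fold in either direction (median -0.11, and 0.58 with library totals alone, where 3 were 2-fold higher).

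Lysosomal and autophagy genes rose in part. Of 55 tested, 16 were at least 2-fold higher in Trog and 2 lower (median 0.29). Among autophagy genes 9 of 18 were higher and 1 lower, and among proton pump genes 4 of 16 were higher and 0 lower. Of 21 lysosomal hydrolase and membrane genes, 3 were higher and 1 lower (median -0.004), near the shares over all genes, 14.8% and 14.0%. ATP6V0D2, a subunit of the proton pump found in osteoclasts and macrophages, had 41.2, 44.5, 31.7, 44.0 and 53.3 CPM in Trog and 1 count in TGFb, 3430-fold (95% counting interval 615 to 135000) higher. Its ubiquitous paralog ATP6V0D1 fell (-0.85 ± 0.0516). GPNMB, a lysosomal glycoprotein, had 205, 219.9, 236, 189.8 and 204 CPM in Trog and 12.3, 9.43, 9.81, 11.2 and 11.9 in TGFb (4.28 ± 0.0767), and no library of 1 group came into the range of the other. The GTPase RRAGD (3.36 ± 0.119) and the autophagy receptor SQSTM1 (2.82 ± 0.0630) rose, and the membrane protein LAMP1 fell (-0.80 ± 0.050). Of the 9 osteoclast markers in the files, which include CTSK and ATP6V0D2, 3 of 4 tested were at least 2-fold higher, and their summed level was 1183 to 1475 CPM in Trog and 213 to 236 in TGFb. OCSTAMP and CALCR, which define that cell, had 0 counts in both groups, while its fusion gene DCSTAMP had 86 counts in Trog and 3 in TGFb, 18.8-fold (95% counting interval 6.21 to 92.8) higher. The part of such cells in these changes was not tested.

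Of 25 antioxidant genes tested, 8 were at least 2-fold higher in Trog and 2 lower (median 0.49). The mitochondrial superoxide dismutase SOD2 had 552, 402, 482, 519 and 383 CPM in Trog and 41.3, 38.5, 36.5, 40.0 and 37.6 in TGFb (3.59 ± 0.0896), all Trog libraries lying above. GCLC, the catalytic subunit of glutathione synthesis, rose (2.30 ± 0.0553), as did ferritin FTH1 (2.32 ± 0.0853) and GSTM3 (3.66 ± 0.0917). The peroxiredoxins PRDX6 (-3.35 ± 0.0610) and PRDX4 (-2.17 ± 0.0616) fell. CYP1A1, the textbook target of the aryl hydrocarbon receptor, rose to 6.48 ± 2.65 CPM in Trog, against 0.486 ± 0.142 in TGFb (3.72 ± 0.305), and its relative CYP1B1 fell (-0.91 ± 0.120), a call that ended with library totals alone (-0.22). Of 32 proteasome subunits, 1 was at least 2-fold higher in Trog and 2 lower (median -0.30, and 0.39 with library totals alone).

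A subset of interferon-induced and inflammatory genes rose. Of 32 interferon-induced genes tested, 9 were at least 2-fold higher in Trog and 1 lower (median 0.43). RSAD2 (viperin), an antiviral enzyme, had 19.3, 27.0, 16.8, 16.2 and 22.9 CPM in Trog and 0 counts in TGFb, at least 545-fold higher. IFIT2 had 125 counts over the Trog libraries and 2 in TGFb, 40.9-fold (95% counting interval 11.1 to 341) higher. The factor IRF1 (3.35 ± 0.0996), ISG15 (1.93 ± 0.374) and MX1 (1.35 ± 0.112) rose, and IFI44 fell (-2.64 ± 0.123). Of 39 cytokine, chemokine and inflammatory genes, 15 were at least 2-fold higher and 10 lower (median 0.46). VCAM1, an adhesion molecule for leukocytes, had 12.4, 9.81, 5.88, 9.51 and 10.7 CPM in Trog and 3 counts over the TGFb libraries, 257-fold (95% counting interval 87.6 to 1250) higher. The chemokine CXCL10 had 177 counts over the Trog libraries and 0 in TGFb (at least 38.6-fold higher), and its level in Trog was 1.10 to 1.75 CPM. The chemokine receptor CXCR4 had 21.1, 14.2, 16.6, 17.2 and 17.8 CPM in Trog and 2 counts in TGFb, 692-fold (95% counting interval 191 to 5720) higher. No TGFb library reached the Trog range of these genes. ACKR3, which shares the ligand CXCL12 with CXCR4, fell (-4.26 ± 0.0869). IL6 rose (3.90 ± 0.555), the alarmin IL33 fell (-4.43 ± 0.0909), and the prostaglandin synthase PTGS2 fell (-1.35 ± 0.10).

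Immune cell markers were low throughout. Of 13 in the files, 4 were tested and 3 were at least 2-fold higher, CSF1R among them at 5.81 ± 0.555 CPM in Trog and 0.152 ± 0.0621 in TGFb. Their summed level was 38.2 to 47.0 CPM in Trog and 21.6 to 30.3 in TGFb, and 6 of them were at 0 in Trog and 6 in TGFb. Adipocyte markers summed to 43.6 to 58.5 CPM in Trog and 7.09 to 8.28 in TGFb, most of it FABP4 in Trog, and the lipid droplet protein PLIN1 averaged 0.467 ± 0.149 CPM in Trog and 0.566 ± 0.146 in TGFb. The part of immune cells or adipocytes in the changes above was not tested.

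Genes of DNA replication and of mitosis moved apart. Of 29 replication genes tested, 7 were at least 2-fold higher in Trog and 2 lower (median 0.49), whereas of 29 mitosis genes, 1 was higher and 14 were lower (median -0.95). CENPF, a kinetochore protein of dividing cells, had 0.129, 0.0385, 0.203, 0.0373 and 0.368 CPM in Trog and 5.22, 3.41, 4.96, 4.55 and 3.61 in TGFb, where every library was higher (-4.83 ± 0.297). KIF20A, a motor of cell separation, had 0 counts in Trog and 173 in TGFb, at least 88.1-fold lower, and CDC20, which starts anaphase, fell (-5.70 ± 0.429). The mitotic kinase CDK1 gave 0.57 ± 0.0809 (adjusted p = 1.27e-06) and the spindle protein TPX2 rose (1.78 ± 0.0792). UNG (2.42 ± 0.198), which removes uracil from DNA, and cyclin CCNE1 (1.48 ± 0.115) rose. Among inhibitors, CDKN1A (p21) had 246, 348, 305, 294 and 291 CPM in Trog and 65.9, 69.6, 66.9, 76.6 and 73.8 in TGFb, again with no overlap (2.07 ± 0.0731), and TP53INP1 (3.14 ± 0.0812) and PMAIP1 (3.45 ± 0.464), both p53 targets, rose. Of 25 inhibitors and p53 targets, 6 were at least 2-fold higher and 2 lower.

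Of 32 transcription factors of the fibroblast state, 12 were at least 2-fold lower in Trog and 5 higher (median -0.49), but with library totals alone 3 were lower and 9 higher (median 0.19). SOX9, a factor of cartilage and of fibrosis, had 3.52, 3.92, 4.59, 4.59 and 3.41 CPM in Trog and 80.7, 88.5, 94.0, 83.2 and 92.1 in TGFb, far from overlap (-4.44 ± 0.0805). HEY1 (-3.18 ± 0.226), a Notch target, fell, and KLF11 (2.79 ± 0.111) and KLF9 (1.32 ± 0.0526) rose. Immediate early genes split, with FOS (-3.78 ± 0.328), JUN (-1.93 ± 0.0944) and MYC (-1.03 ± 0.0687) lower and NR4A2 (1.64 ± 0.180) higher. Of 12 clock genes tested, 4 were at least 2-fold higher, CLOCK (1.39 ± 0.0782) and NR1D2 (1.73 ± 0.0518) among them, and 0 lower.

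Several of the largest single changes lay outside these lists (genes without overlap whose higher group averaged 10 CPM or more). KNG1, the kininogen precursor, had 13.0, 13.7, 13.7, 11.9 and 15.4 CPM in Trog and 0 counts in TGFb, at least 360-fold higher. VAV3, an exchange factor for small GTPases, rose to 29.3 ± 2.89 CPM in Trog, against 0.106 ± 0.128 in TGFb (8.11 ± 0.220). GJB2 (7.81 ± 0.248), the gap junction protein connexin 26, the corepressor CBFA2T3 (6.85 ± 0.302), the peptide transporter SLC15A3 (6.79 ± 0.167) and ASS1 (6.40 ± 0.119), which makes argininosuccinate, rose too. GABRP, a chain of a GABA receptor, fell furthest, with 0.0859, 0, 0.365, 0.261 and 0.0921 CPM in Trog and 299, 316, 407, 261 and 299.7 in TGFb (-10.87 ± 0.198), where the lowest library was far above the highest Trog library. The matrilin MATN2 (-6.48 ± 0.179) and the membrane protein TMEM255A (-5.98 ± 0.0725) also fell.

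**Figure D3:**
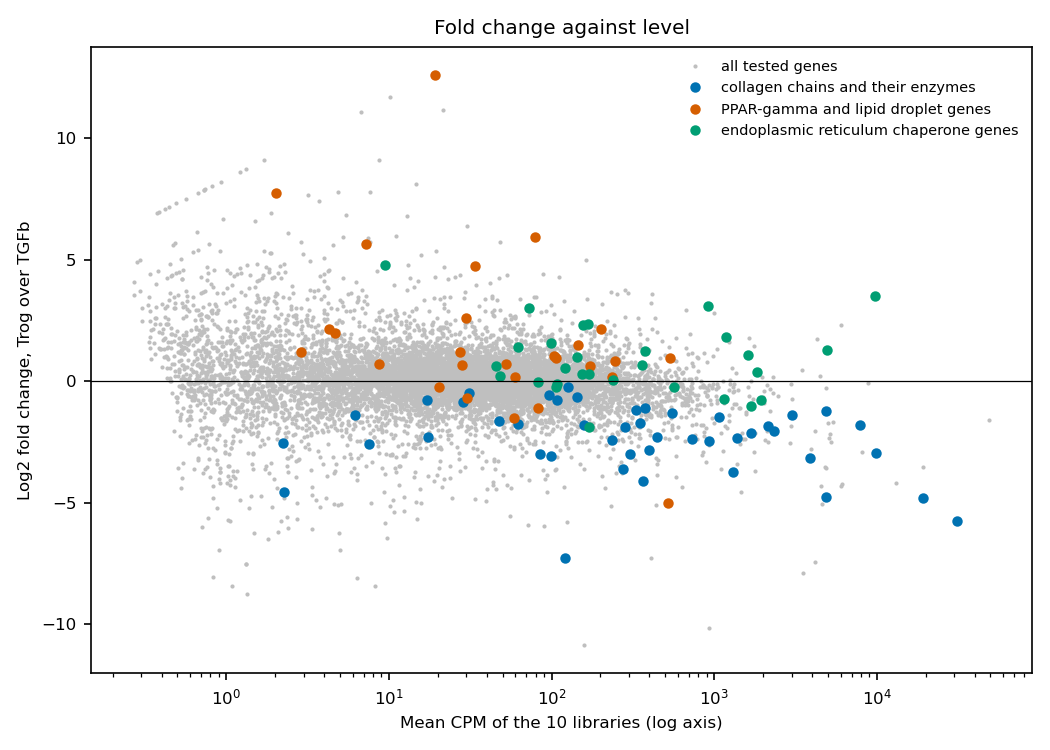
Log2 fold change of Trog over TGFb against the mean CPM of the 10 libraries (log axis) for the 10131 tested genes (grey), with collagen chains and their enzymes (blue), PPAR-gamma and lipid droplet genes (orange) and endoplasmic reticulum chaperone genes (green). Collagen genes lie below the line of no change, many at the highest levels, the highest orange point is FABP4, a fitted value beside 0 counts in TGFb, and the median of all genes lies at 0.03.

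At day 5 the Trog cells also differed widely from the FB cells of day 0. Of 10161 genes tested against FB, 1479 (14.6%) were at least 2-fold higher in Trog and 1440 (14.2%) lower, against 2243 higher and 950 lower with library totals alone. This comparison and the ones that follow share the Trog libraries with the comparison above, so their values are given side by side only. Most contractile and collagen genes were below FB: 13 of 16 contractile genes and 14 of 19 collagen chains were at least 2-fold lower in Trog, and 1 contractile gene and 2 collagen chains were at least 2-fold higher. The higher ones were SYNPO2 (2.37 ± 0.346), COL11A1 (4.19 ± 0.430) and COL8A1 (1.73 ± 0.397), all at low levels. ACTA2 averaged 269.8 ± 73.6 CPM in Trog and 1942 ± 146 in FB (log2 fold change of Trog over FB -2.85 ± 0.133, adjusted p = 1.65e-13), and COL1A1 averaged 1129.8 ± 270.2 CPM in Trog and 43661 ± 5067 in FB (-5.27 ± 0.153). TNC (-3.52 ± 0.167) and ELN (-4.93 ± 0.151) were lower than in FB as well, and HSPA5 (2.85 ± 0.0789) and DDIT3 (2.30 ± 0.157) were higher. Mitosis genes were also far below FB, with 29 of 33 at least 2-fold lower, and 21 of 31 replication genes were lower. KIF20A had 2401 counts over the FB libraries, 173 in TGFb and 0 in Trog. Whether the FB cells were at rest was not tested. Of 29 endoplasmic reticulum genes, 15 were at least 2-fold higher than in FB. CDKN1A (2.23 ± 0.102), FABP5 (4.64 ± 0.0832) and GPNMB (2.75 ± 0.0592) were above FB, and SOX9 was below it (-3.86 ± 0.0847).

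Set against cells given GW9662 beside troglitazone, contractile and collagen genes were higher in Trog more often than lower, and so were some PPAR-gamma targets. Of 10423 genes tested, 532 (5.1%) were at least 2-fold higher in Trog than in TrogGW and 977 (9.37%) lower, against 377 higher and 1218 lower with library totals alone. Of 15 contractile genes, 9 were at least 2-fold higher in Trog and 1 lower, and of 19 collagen chains 10 were higher and 1 lower. ACTA2 had 212, 315, 374, 249.7 and 198 CPM in Trog and 29.4, 5.84, 1.75, 2.19 and 7.65 in TrogGW (log2 fold change of Trog over TrogGW 4.85 ± 0.529, adjusted p = 9.71e-07). The groups did not overlap, TrogGW replicate 1 was the highest of its group, and without it the log2 fold change was 5.97. COL1A1 averaged 1129.8 ± 270.2 CPM in Trog and 814 ± 316 in TrogGW (0.47 ± 0.211, adjusted p = 0.0574). That p was 0.00048 without TrogGW replicate 1 and 0.0234 without Trog replicate 1, 0.0466 with no filter on low counts and 0.0197 in the fit of all libraries but UK replicate 5, so the call depends on single libraries, the filter and the fit.

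Of 30 PPAR-gamma and lipid droplet genes tested, 7 were at least 2-fold higher in Trog than in TrogGW and 3 lower. FABP4 had 46.7, 33.1, 38.9, 39.1 and 33.2 CPM in Trog and 4.59, 4.40, 6.61, 3.68 and 4.82 in TrogGW, with no overlap (2.99 ± 0.134). FABP5 (2.03 ± 0.0659), KLF15 (1.71 ± 0.169) and ANGPTL4 (1.22 ± 0.143) were also higher in Trog, each a gene that responds to PPAR ligands or fasting in other tissues. PDK4 averaged 4.01 ± 0.802 CPM in Trog and 3.72 ± 0.529 in TrogGW (0.10 ± 0.149, adjusted p = 0.546), and PLIN2 was lower in Trog (-0.61 ± 0.0713). Members at least 2-fold lower in Trog included UCP2 (-2.23 ± 0.222) and GPD1 (-1.64 ± 0.246). PPARG itself had 0 counts in Trog and 65 in TrogGW, at least 20.3-fold lower in Trog. CD36 had 1 count in Trog and 36 in TrogGW, 33.7-fold (95% counting interval 5.68 to 1370) lower, and the partner receptor RXRG had 2 counts in Trog and 35 in TrogGW, 16.4-fold (95% counting interval 4.21 to 141) lower. These 3 genes had few counts, and such genes were often lower in Trog. TrogGW libraries had 11996 to 12112 genes with a count, and Trog libraries 11509 to 11625. With no filter, 1560 genes were at least 2-fold lower in Trog and 652 higher, against 396 and 350 with a stricter filter.

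Among the genes with the largest rises over TGFb, levels differed between Trog and TrogGW in both directions. KNG1 (2.62 ± 0.146), CXCR4 (1.04 ± 0.114), ATP6V0D2 (1.07 ± 0.132) and VAV3 (1.07 ± 0.0804) were higher in Trog than in TrogGW. GJB2 was lower, with 16.1, 14.1, 15.6, 15.7 and 15.2 CPM in Trog and 85.2, 123, 117, 115 and 104 in TrogGW (-2.83 ± 0.0897), and the groups did not overlap for any of these genes. RSAD2 averaged 20.4 ± 4.51 CPM in Trog and 21.0 ± 4.66 in TrogGW (-0.04 ± 0.154, adjusted p = 0.834). HSPA5 averaged 17949.7 ± 2132 CPM in Trog and 8768 ± 2191 in TrogGW (1.03 ± 0.147), and 10 of 29 endoplasmic reticulum genes were at least 2-fold higher in Trog. The protease CTSK was higher in Trog than in TrogGW (1.61 ± 0.108).

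Set against UK-5099, given over the same 3 days without TGFb1, Trog cells had lower levels of most collagen chains and of ACTA2, and higher levels of stress response genes. UK replicate 5 stood apart from the other UK libraries, with correlations across genes down to 0.829, so values are given with and without it. Of 10143 genes, 1078 (10.6%) were at least 2-fold higher in Trog than in UK and 1370 (13.5%) lower, against 2111 higher and 721 lower with library totals alone. Without that library the counts were 1168 (11.4%) and 1187 (11.6%) of 10233. COL1A1 had 776, 1008, 1514, 1159.7 and 1190.2 CPM in Trog and 65066, 60615, 70101, 79718 and 49587 in UK (log2 fold change of Trog over UK -5.85 ± 0.256, and -5.93 ± 0.184 without UK replicate 5). ACTA2 averaged 269.8 ± 73.6 CPM in Trog and 3408 ± 1464 in UK (-3.66 ± 0.313, and -3.36 ± 0.159 without it). Of 18 collagen chains, 13 were at least 2-fold lower in Trog, and the count was 14 of 19 without UK replicate 5. HSPA5 averaged 17949.7 ± 2132 CPM in Trog and 786 ± 469 in UK (4.51 ± 0.366, and 4.96 ± 0.126 without it). Integrated stress response genes were higher in Trog, with 20 of 29 at least 2-fold higher and 21 without UK replicate 5. FABP4 (4.38 ± 0.642, and 5.41 ± 0.179 without UK replicate 5) and GPNMB (1.18 ± 0.262, and 0.98 ± 0.0744 without it) were higher in Trog, while CYP1A1 was lower (-4.52 ± 0.301, and -4.44 ± 0.201 without it). The drugs were given at different doses, so these values stand side by side.

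**Figure D4:**
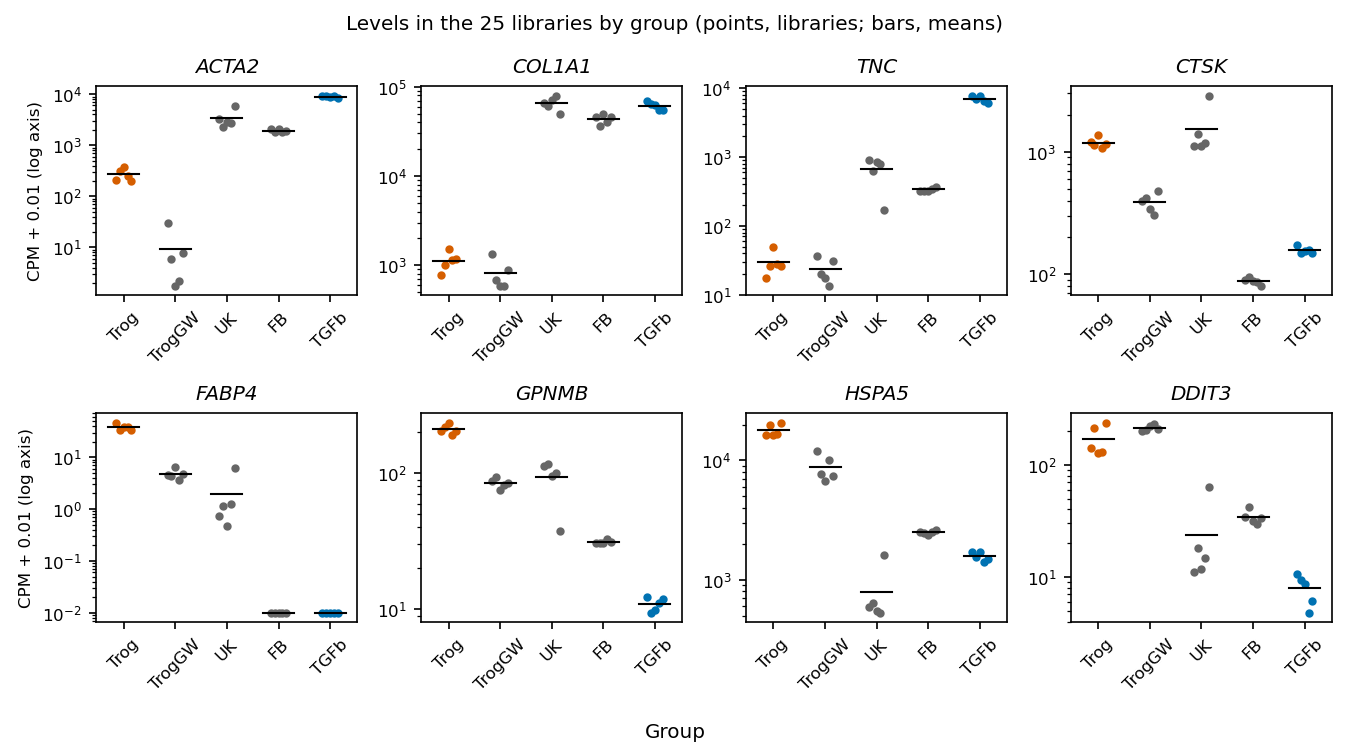
Levels of 8 genes in all 25 libraries, in CPM plus 0.01 on a log axis, with the groups in the order Trog, TrogGW, UK, FB and TGFb (points, libraries; bars, group means). ACTA2 and COL1A1 are lowest in Trog and TrogGW, FABP4 is highest in Trog, and HSPA5 and DDIT3 are higher in Trog and TrogGW than in the other groups.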

How the data were processed

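Polyadenylated RNA of 25 libraries was sequenced, 5 per group, and groups were taken from the sample labels. Tools listed by the submitters' processing notes are STAR 2.7.9a, Salmon 1.5.2, fastp 0.23.1 and Subread 2.0.1 with featureCounts. The authors deposited counts of reads per gene symbol; the genome build and strand setting are not given in the sources used here. No blank or summary entry was among the 13949 symbols, of which 13111 had a count.

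TMM factors were computed over all 25 libraries (edgeR 4.0.16, R 4.3.3). Each comparison with Trog was fitted on its 2 groups alone, 5 libraries against 5, since UK replicate 5 stood apart and would enter a shared spread. Genes passed filterByExpr with a minimum count of 10 and a minimum total of 15 and entered edgeR's quasi-likelihood test, p-values being adjusted over all of them by the Benjamini-Hochberg procedure with a threshold of 0.05. The SE is the absolute log2 fold change over the root of the F statistic. Levels in CPM are counts relative to the scaled library total, and error after ± on a level is the SD over 5 libraries. Ratios against a group with 1 to 3 counts carry an exact 95% counting interval, and against 0 counts a floor of 3 counts over the group was used. These cover counting error only. The test was checked on simulated data in which few genes changed, equally in both directions. That check does not cover data where most genes change, nor the choice of scale.

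The genes named are the 10 largest and 10 smallest log2 fold changes without overlap, where the higher group averaged 10 CPM or more, preset genes of each list, and up to 4 in each direction per list that changed at least 2-fold. Cell type markers such as FAP, CSF1R and PLIN1 come from fixed marker lists. Which markers to name was not set by the rule, so they count as named after their values were seen. SYNPO2, COL11A1, UCP2, GPD1 and RXRG were named after their values were seen. The groups compared, the lists and the tests were chosen with earlier results of these data known, and no set test was run. Replicate numbers did not pair the Trog and TGFb libraries: same-numbered ones deviated from their group means with correlations of -0.283 to 0.065. These correlations were -0.219 to 0.117 for Trog and TrogGW. They were -0.141 to 0.333 for Trog and FB and -0.243 to 0.53 for Trog and UK, highest for replicate 4 in both, so a pairing of some libraries there stays possible. Replicate pairs differed by more than sampling noise. Each library was counted as 1, though that check cannot show that the cultures were separate. Alternatives were other scalings, filters, designs, DESeq2 1.42.0 and leaving out each library. Scaling over the 2 groups alone was added after the data were seen. Some genes that the rule names are not reported here. No sequences are shown.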

Additional observations from a re-analysis of the deposited data

Results flagged for a closer look

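Of 386 groups of 5 values looked at for the named genes and library totals in Trog and TGFb, 24 (6.22%) had 1 library whose gap to the nearest of the others took up most of the range of its group. Chance alone flags about 1 in 20 groups of such values, a rate that was not tested on these data. The groups share 10 libraries, so their flags are not independent.

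Trog replicate 3 stood above the other libraries of its group for CYP1A1 (11.0 CPM, the nearest other library 6.15), CYP1B1 (25.8 CPM, the nearest other library 16.8), ELN (8.81 CPM, the nearest other library 5.02) and LUM (336 CPM, the nearest other library 234). Trog replicate 2 stood above the other libraries of its group for CCN2 (2067 CPM, the nearest other library 1664), FGF1 (20.7 CPM, the nearest other library 15.1), KLF15 (21.2 CPM, the nearest other library 14.1) and TRIB3 (434 CPM, the nearest other library 313). It stood below the other libraries of its group for ITGB1 (815 CPM, the nearest other library 895). Trog replicate 1 stood above the other libraries of its group for FABP5 (175 CPM, the nearest other library 151) and ITGA10 (29.1 CPM, the nearest other library 25.5). TGFb replicate 1 stood above the other libraries of its group for DKK2 (1386 CPM, the nearest other library 1181), FSTL1 (9645 CPM, the nearest other library 8937), MET (648 CPM, the nearest other library 535), SCD (1073 CPM, the nearest other library 968), SLC16A3 (431 CPM, the nearest other library 371), UNG (1.58 CPM, the nearest other library 0.913) and VCL (1538 CPM, the nearest other library 1376). TGFb replicate 4 stood above the other libraries of its group for ALDOC (85.8 CPM, the nearest other library 78.0), ASNS (640.0 CPM, the nearest other library 577) and GSTM3 (42.2 CPM, the nearest other library 33.0). It stood below the other libraries of its group for HK2 (75.6 CPM, the nearest other library 83.0). TGFb replicate 2 stood below the other libraries of its group for KIF20A (1.28 CPM, the nearest other library 2.18). TGFb replicate 3 stood above the other libraries of its group for SLC4A11 (2.82 CPM, the nearest other library 1.70). The groups Trog and TGFb do not overlap for any of these genes.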

How the results depend on the processing

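Read depth limits genes near the filter, which had about 10 counts in a library, and the day, the withdrawal of TGFb1 and the drug cannot be told apart. The scale had the widest effect. With library totals alone, genes at least 2-fold higher in Trog numbered 3746 against TGFb, 2243 against FB and 2111 against UK, and those lower 683, 950 and 721. The median over all genes shifted by 0.31 against FB, -0.17 against TrogGW and 0.46 against UK. On that scale 10 named genes turned positive against TGFb: DCN (0.68), ALDH1A1 (0.56), FAP (0.44), XBP1 (0.42), MPC2 (0.30), MPC1 (0.14), SLC2A1 (0.064), PAFAH1B2 (0.32), WNT5A (0.008) and AXIN2 (0.006), and PDGFRA, SMAD7, SREBF1 and CYP1B1 lost their calls. A stricter filter, which tests fewer genes, left 965 at least 2-fold higher in Trog than in TGFb, 969 than in FB and 350 than in TrogGW, and 396 lower than in TrogGW, where 1560 were lower with no filter. Fitting all 25 libraries gave 4620 genes changed between Trog and TrogGW, against 7305, and ended the calls of ACADVL, MPC2, PDGFRA and XBP1 against TGFb. In the fit of all libraries but UK replicate 5, 7729 genes changed between Trog and TrogGW. That fit changed no named call against TGFb. The cause was not tested further. Between Trog and UK, 4377 genes changed, 8115 in the fit of all libraries but UK replicate 5, and 3677 to 7746 with 1 library left out, the highest without UK replicate 5. Leaving out 1 library at a time gave 8348 to 8429 changed genes against TGFb, 8407 to 8479 against FB and 6995 to 7480 against TrogGW. DESeq2 gave 8400 against TGFb and ended the call of AXIN2. With a replicate block, 8363 genes changed against TGFb, 8479 against FB, 7189 against TrogGW and 3505 against UK, and no named gene changed its call. Scaling over the 2 groups alone changed no named call. List medians were the same with genes at 0 counts set to their bound, but no list had more than 1 such gene, so they could hardly move.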

Other observations

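SIDT2, a lysosomal membrane protein in mammals, was chosen after its values were seen. It had 509.9, 639, 650.1, 541 and 529.9 CPM in Trog and 11137, 12047, 11225, 11612 and 10996 in TGFb (-4.31 ± 0.0897, adjusted p = 2.01e-20 in edgeR's test), with no overlap. By RefSeq's annotation of F.catus_Fca126_mat1.0, an assembly of the cat genome that may not be the build used by the authors, the neighbours of SIDT2 are PAFAH1B2 on one side and LOC123380355, TAGLN and PCSK7 on the other. TAGLN (transgelin), an actin-binding protein of smooth muscle, was not analysed here. Whether reads of neighbouring genes are counted under SIDT2 was not tested, so the values belong to that symbol and may not be those of SIDT2 alone. PCSK7 had 73.1, 65.7, 69.0, 67.2 and 65.4 CPM in Trog and 49.9, 45.1, 47.5, 43.4 and 41.9 in TGFb (0.58 ± 0.0556), and PAFAH1B2 had 130.1, 123, 119, 127 and 129 CPM in Trog and 154, 162, 162, 165 and 166 in TGFb (-0.37 ± 0.0446).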
